A study of Ornithorhynchus anatinus with 3 samples.

Results

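The loci described here are the 3405 loci of at most 150 bp in the platypus ovary gene table, of 22369 loci listed there. They were chosen by position only, as the loci whose listed end minus start was 150 bp or less and that lay on numbered chromosomes, ultracontigs or contigs. Loci on the X chromosomes, on Contig819 and on the mitochondrial genome were left out. No expression value entered the choice. Of the 3 RNA-seq libraries compared, each was made from 1 adult platypus caught in New South Wales and was the only library of its group. The ovary came from an ovulating female (Female1, RNA integrity number 9.3), the male fibroblasts from Male1 (8.9) and the female fibroblasts from another ovulating female (Female2, 9.9). Fibroblasts are cells of connective tissue, which the study used as cultured lines. Sex, animal and RNA quality change together between the libraries, and depth, which is not known for the fibroblasts, may change too. Ovary and fibroblasts also differ as tissue and cultured cells and in the unit of their values. These factors cannot be told apart, and no difference below has a replicate check or a p-value.

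Genes of this length mostly encode structural and regulatory RNAs rather than proteins. Hairpins of microRNAs are cut to short guides that repress mRNAs, small nucleolar RNAs (snoRNAs) direct chemical changes in ribosomal RNA, small nuclear RNAs build the spliceosome, and 5S RNA is a part of the ribosome. Many animal snoRNAs and microRNAs are cut out of the introns of longer host genes, and the platypus genome is known for large families of snoRNA-derived copies spread by retroposition. The libraries were made with a directional mRNA protocol, in which such RNAs are caught only in part. The tables give identifiers and positions but no names, so that the class of each locus is unknown, and neither small RNA classes nor the markers of ovary and fibroblasts could be looked up. No sequence of the loci was at hand, and none is shown. Positions refer to the platypus assembly of Ensembl release 57.

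The short loci lay mainly on unplaced contigs. Of the 3405 loci, 2775 (81.5%) were on contigs, 426 on ultracontigs and 204 on numbered chromosomes, whereas contigs held 55.8% of the 18315 loci of over 150 bp. For 2293 of the loci on contigs (82.6%), the short locus was the only listed locus of its contig. The lengths ran from 41 bp to the limit, with a median of 136 bp. A single length, 138 bp, was shared by 796 loci (23.4%), and 1390 loci (40.8%) had between 136 and 141 bp. Nearly all of the latter, 1362, were on contigs, of whose short loci they made up 49.1%, against 25 on ultracontigs and 3 on chromosomes. Smaller peaks included 119 bp with 73 loci, 86 bp with 64, 94 bp with 62, 88 bp with 58 and 74 bp with 55. Further ones were at 107 bp with 47 loci and 92 bp with 37 loci. Of the loci of 86, 94, 88 and 74 bp, 5, 1, 2 and 0 were above 0 in the ovary. Only 11, 9, 5 and 5 of them had a fibroblast value.

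Few of the short loci were detected, that is, had a value above 0. In the ovary 203 of 3405 loci were detected (5.96%, 95% Wilson interval 5.22% to 6.81%, which covers counting error only), where 69.6% of all listed loci were. A fibroblast value existed for 2222 of the short loci, of which 182 (8.19%) were detected in the ovary. Of the same 2222 loci, 334 were detected in the male library (15.0%, 13.6% to 16.6%) and 367 in the female library (16.5%, 15.0% to 18.1%). Over all listed fibroblast genes, 61.4% were above 0 in male and 62.3% in female cells. Detection was higher among longer loci. In the ovary it was 30.8% of 438 loci of over 150 to 200 bp, 58.5% of 207 loci of over 200 to 300 bp and 87.2% of 15666 loci of over 1000 bp. In male fibroblasts the same classes stood at 38.6%, 55.0% and 75.3%, and in female fibroblasts at 41.8%, 55.0% and 76.2%. Loci of over 300 to 1000 bp lay below the class before them, at 48.3% of 2004 loci in the ovary and 35.3% and 35.5% in male and female fibroblasts.

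The short loci were detected less often than long ones within each type of scaffold. On numbered chromosomes 17 of 204 short loci (8.33%) were detected in the ovary, against 94.1% of 2053 loci of over 1000 bp. On contigs the shares were 5.05% of 2775 short loci and 81.9% of 8188 long ones. The ultracontigs had the highest share of detected short loci in each library, with 10.8% in ovary, 29.2% in male and 34.2% in female fibroblasts.

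Within the short loci, the dominant length class was among the least detected. Of the loci of 136 to 141 bp, 33 of 1390 (2.37%) were detected in the ovary, 39 of 922 with a value (4.23%) in male and 41 (4.45%) in female fibroblasts. At all other lengths the shares were 8.44% of 2015 loci in the ovary, 22.7% of 1300 in male and 25.1% in female fibroblasts. For 138 bp alone, 9 of 796 loci were above 0 in the ovary.

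The profile over bins of 10 bp differed between the ovary table and the fibroblast tables at the short end. In the ovary no locus of under 78 bp had a value above 0, although 268 of the loci were that short. In the fibroblasts 161 loci of under 78 bp had a value, and 47 of them were detected in male (29.2%) and 53 in female cells (32.9%), 45 of them in both. The shortest locus detected in either fibroblast library had 59 bp. From 61 to 70 bp the ovary had 0 of 94 loci, while male fibroblasts had 27.7% and female fibroblasts 33.8% of 65 loci. As every locus of under 78 bp stood at 0 in the ovary table, these zeros set no upper limit on detection there. The fibroblast shares peaked at 71 to 80 bp, at 40.6% and 42.5% of 106 loci, and the ovary share was then 1.66% of 181 loci. At 111 to 120 bp all 3 libraries came close together, with 18.2% in ovary (13.9% to 23.5%), 21.8% in male (17.0% to 27.6%) and 20.1% in female fibroblasts (15.4% to 25.8%). At 131 to 140 bp, the bin with the most loci, the shares fell to 3.63% of 1514 loci in ovary. In male and female fibroblasts they were 6.06% and 7.02% of the 940 loci with a value. Reads of 76 or 80 cycles were about as long as the shortest loci detected in the ovary, and the ovary and fibroblast tables hold different units (FPKM and RPKM). The part of either in the difference was not tested.

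**Figure D1:**
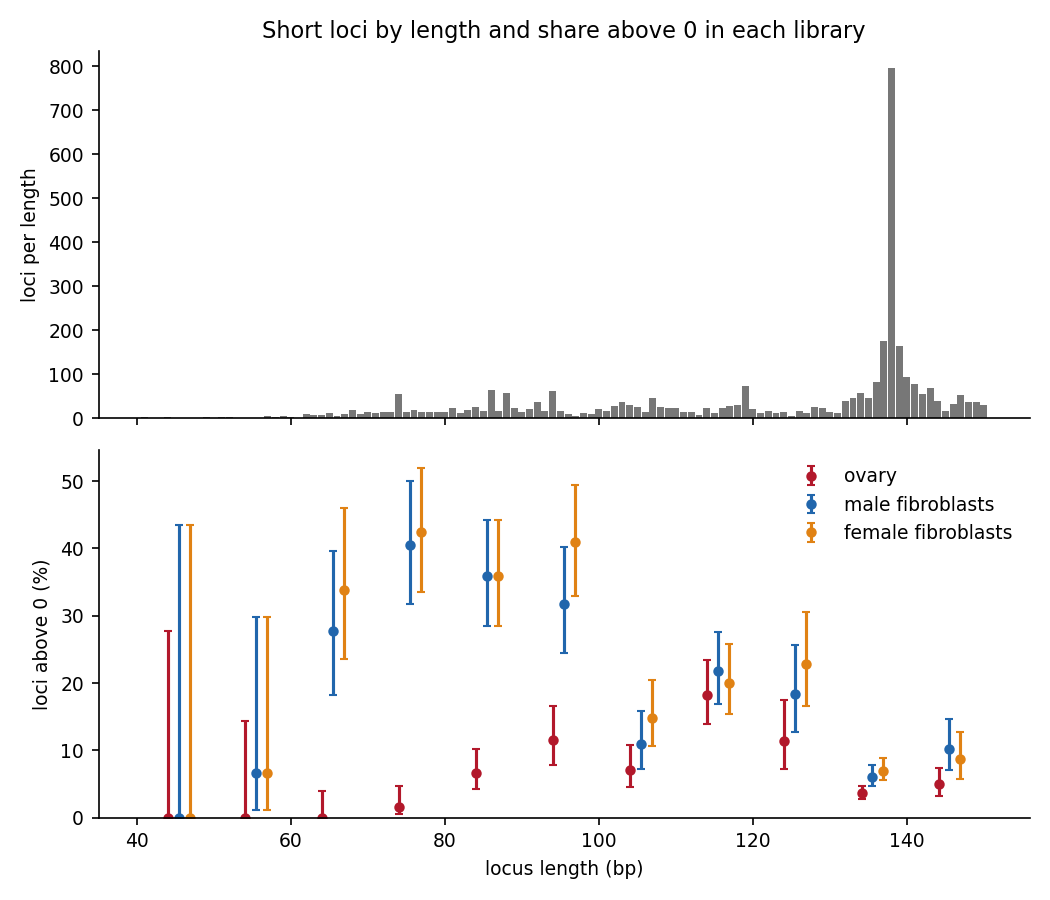
Number of short loci at each length in bp (top) and percent of loci with a value above 0 in bins of 10 bp (bottom) for ovary, male and female fibroblasts, with 95% Wilson intervals. Ovary percents are of all short loci, fibroblast percents only of those with a fibroblast value. The 796 loci of 138 bp stand out at the top, and below 78 bp loci are detected in fibroblasts but not in ovary.

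Loci without a fibroblast value were rarely detected in the ovary. They numbered 1183 (34.7% of the short loci), and 21 of them (1.78%) were above 0 in the ovary, against 182 of the 2222 loci with a fibroblast value (8.19%). Among loci of over 150 bp only 199 of 18315 (1.09%) lacked a fibroblast value. The missing short loci were set apart by their identifiers, since the highest identifier number with a value was 26823 and the lowest without one was 26825. None of the short loci carried the code of -1.

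Over the 2222 loci with values in all tables, 1789 (80.5%) were at 0 in every library, compared with 15.7% of 18116 loci of over 150 bp. Among the 433 detected somewhere, 141 were above 0 in all 3 libraries, 150 in both fibroblast libraries but not in ovary, and 23 in ovary only. The remaining 119 included 66 in female fibroblasts only, 35 in male fibroblasts only, 8 in ovary and male fibroblasts, and 10 in ovary and female fibroblasts. Of the loci detected in the ovary, 141 of 182 (77.5%) were also detected in both fibroblast libraries, close to the 80.9% of longer loci. The reverse share was lower. Of the 291 short loci above 0 in both fibroblast libraries, 48.5% were above 0 in the ovary, or 57.3% of the 246 loci of at least 78 bp, against 98.4% of 12224 longer loci. A total of 119 short loci were above 0 in only 1 of the fibroblast libraries, at a median RPKM of 0.318 and at most 3.53, and 9 of them reached an RPKM of 1.

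All 3405 short loci carried the ovary status OK, which the quantification software gives when its estimate succeeded. Among loci of over 150 bp, 141 were marked LOWDATA and 22 FAIL. The status therefore does not separate well measured from poorly measured short loci, which the interval limits do. For 104 of the 203 detected loci (51.2%) the lower limit of the ovary interval was 0, compared with 9.37% of the 13654 detected loci of over 1000 bp. By bin, this share was lowest at 111 to 120 bp (20% of 45 loci) and highest at 131 to 140 bp (80% of 55 loci).

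The distance from each ovary value to its upper limit was taken as 2 times the value over the square root of its fragment count. The fragments behind the value were read from the limits in this way. Among the 178 detected short loci with under 100 fragments, 173 (97.2%) gave a whole number within 0.01. For longer loci the reading was not checked. Counts of detected loci there went down to 0 at over 300 to 1000 bp and to 0.02 at over 1000 bp. A total of 49 of the 203 loci (24.1%) rested on exactly 1 fragment, and the median was 4 fragments. At least 10 fragments lay behind 79 loci and at least 100 behind 25.

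What 1 fragment was worth depended on length alone. Detected loci had 53 lengths. At lengths with several of them the FPKM per fragment agreed within 0.00661% between loci, and it fell at each of the 52 steps to the next longer length. One fragment stood for an FPKM of 1935 at 78 bp, 103 at 92 bp, 14.5 at 119 bp, 6.45 at 138 bp and 4.30 at 150 bp. A fragment thus counted 450-fold more at 78 bp than at 150 bp, although the lengths differ only 1.92-fold. With the summed fragments of the library (11139150) as its total, these values amount to division by 0.0464 bases at 78 bp, 0.868 bases at 92 bp and 20.9 bases at 150 bp in place of the locus length. That total includes the unchecked counts of longer loci, so these numbers of bases are approximate. Ovary FPKM values of short loci of different lengths are therefore not on 1 scale, and a locus of 1 fragment was listed anywhere from 4.73 to 1935 FPKM.

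**Figure D2:**
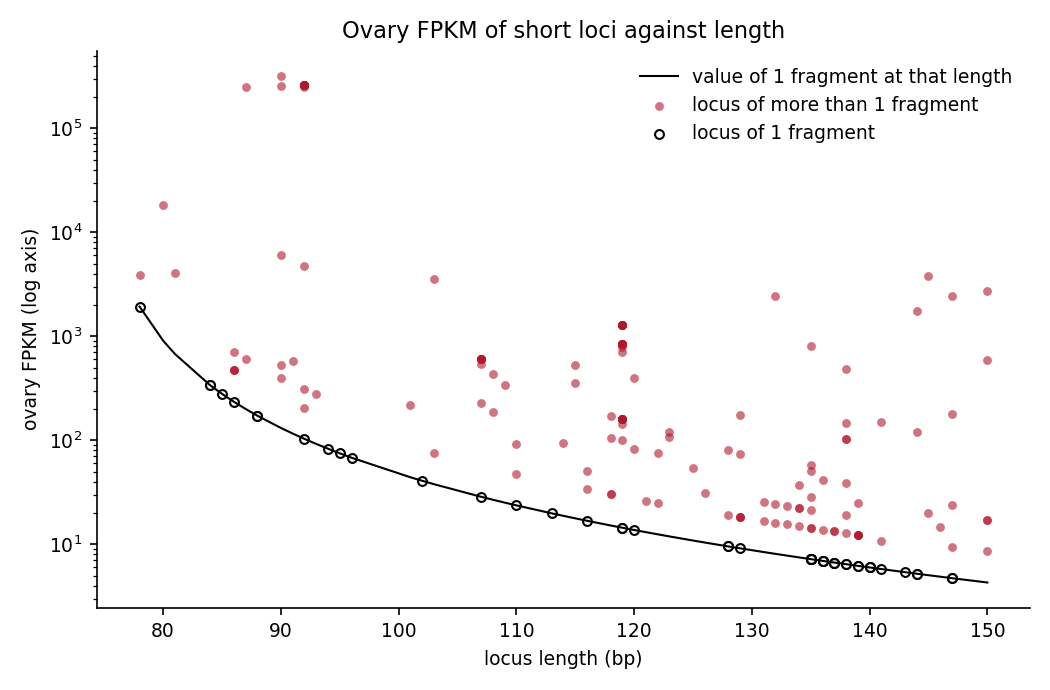
Ovary FPKM (log axis) of the 203 detected short loci against locus length in bp. The line is the value of 1 fragment at each length, open circles are the 49 loci of 1 fragment, and the filled points above 200000 at 87 to 92 bp are the 18 highest loci.

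The short loci took 85.9% of the summed ovary FPKM but 0.439% of the summed fragments. Most of the former came from 18 loci with an FPKM above 200000, which held 98.0% of the FPKM of all short loci and were the only loci of the table above that level. They were 87 to 92 bp long and rested on 1243 to 2544 fragments each. Ranked by FPKM, 30 short loci were among the 100 highest loci of the library, and ranked by fragments, 0 were. The share and the rank by fragments rest on counts of longer loci, whose reading from the limits was not checked. In the fibroblasts, where RPKM is divided by the length of the exon model, the short loci had 5.56% of the summed RPKM of male cells and 4.02% of that of female cells. A single locus held 59.1% of this part in male and 58.2% in female cells.

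The highest ovary value belonged to a 90-bp locus at the start of Contig244910 (positions 1 to 90). Its FPKM was 318404 (interval 305453 to 331354), from 2418 fragments, and its RPKM was 112 in male and 72.2 in female fibroblasts. The next 14 loci were all 92 bp long, each on a contig of its own, and all had the same FPKM of 263040 with the same limits of 252610 and 273471, equal to 2544 fragments. These 14 loci share 4 of the 5 highest ranks in the ovary, so that they are described as a group. Whether the same fragments were counted at each of them cannot be told from the table, and as values of loci with near-identical copies they are uncertain.

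The same 14 loci were far from equal in the fibroblasts. The highest was at positions 69 to 160 of Contig166449, with an RPKM of 26301 in male and 17365 in female fibroblasts. It was followed by positions 122 to 213 of Contig165298 (9208 and 6458) and 207 to 298 of Contig157649 (1947 and 1199). Positions 608 to 699 of Contig272700 came next (762 and 576). The lowest of the 14, at positions 1 to 92 of Contig177019, had 14.1 and 9.69. The spread from lowest to highest was thus 1861-fold in male and 1793-fold in female fibroblasts, with nearly the same order in both (Spearman's rho 0.908 over these 14 loci, which share their length and ovary value). Together they carried 91.3% of the RPKM of all short loci in male and 90.9% in female fibroblasts. The fifth highest locus of both fibroblast libraries was also 92 bp long, at positions 228 to 319 of Contig237911, with an RPKM of 761 and 571. In the ovary it had 1 fragment (FPKM 103, interval 0 to 310). A level that was identical over loci in one table could thus differ over 1000-fold in another.

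Identical ovary values were common among short loci. Of the 203 detected loci, 100 (49.3%) shared FPKM and limits with at least 1 other locus, in 26 groups, each of a single length. With few fragments per locus such ties are frequent, and 6 groups of 47 loci had at least 10 fragments. At 119 bp these were 9 loci of 89 fragments (FPKM 1286), 8 loci of 58 fragments (838) and 8 loci of 11 fragments (159), all on contigs. At 107 bp, 6 loci of 21 fragments (602) lay on only 2 scaffolds. Of the 291 loci above 0 in both fibroblast libraries, 19 (6.53%) shared both RPKM values with another.

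The lengths of 92 and 119 bp also had the most detected loci in the ovary. They numbered 19 of 37 loci of 92 bp (51.4%) and 31 of 73 loci of 119 bp (42.5%). Of the 36 loci of 92 bp with a fibroblast value, 28 were above 0 in male (77.8%) and 30 in female fibroblasts (83.3%). For the 73 loci of 119 bp these numbers were 31 (42.5%) and 29 (39.7%), shares like those of all fibroblast loci of 71 to 80 bp. The ovary fragments of the 19 detected 92-bp loci ranged from 1 to 2544, and those of the 31 loci of 119 bp from 1 to 89 with a median of 58.

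The loci of over 93 bp with the most fragments had other lengths. A 145-bp locus at positions 169 to 313 of Contig288621 had 760 fragments (FPKM 3839, interval 3560 to 4117), with an RPKM of 28.2 in male and 9.35 in female fibroblasts. Positions 184 to 333 of Contig181339 had 631 fragments (FPKM 2712) and 101 and 62.3 RPKM. A 147-bp locus on Ultra56 (positions 138257 to 138403) had 514 fragments (FPKM 2431) and 120 and 147 RPKM. A 144-bp locus at positions 196 to 339 of Contig40406 had 337 fragments (FPKM 1760), below the preceding ones, but the highest fibroblast values of these loci, at 587 and 395 RPKM. The fifth, a 132-bp locus at positions 330 to 461 of Contig161125, had 304 fragments in the ovary (FPKM 2464) and was listed at 0 in both fibroblast libraries. These 5 loci were chosen after their values were seen. Over the 141 loci above 0 in all 3 libraries, Spearman's rho between ovary fragments and RPKM times length was 0.632 in male and 0.590 in female fibroblasts, as a description of loci that share lengths and in part identical values.

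The detected short loci had a median RPKM of 1.64 in male fibroblasts (95% order-statistic interval over loci, 1.30 to 2.17) and 1.07 in female fibroblasts (0.850 to 1.32). Loci of over 1000 bp had medians of 11.2 and 11.6. An RPKM of 10 was reached by 60 short loci in male and 46 in female fibroblasts, and an RPKM of 100 by 20 and 12. The bin of 91 to 100 bp had the highest male median, at 10.4, and its female median was 2.81. Reads behind these values could not be recovered. Where a gene model is as long as its locus, RPKM times length in kb should be a whole multiple of what 1 read is worth. Among products below 1, the best step tried left only 12.9% of 272 male and 13.5% of 318 female values within 0.03 of a whole number. The products went down to 0.00269 in male and 0.00359 in female fibroblasts, and 8.38% and 13.6% of the detected loci lay below 0.02. Partial reads and exon models longer than the listed locus cannot be told apart here, so low fibroblast values may rest on less than 1 whole read.

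Among loci below 78 bp, only the fibroblast libraries had values above 0. The highest were 2 loci of 69 bp with the same pair of values, 48.9 RPKM in male and 25.6 in female fibroblasts, at positions 9588 to 9656 of Contig18615 and 1647 to 1715 of Contig86933. At 61 to 70 bp the median of the detected loci was 2.32 in male and 1.94 in female fibroblasts. At 71 to 80 bp, a bin that includes loci of 78 to 80 bp, it was 1.401 and 1.72. Over all detected short loci the medians were 1.64 and 1.07. The shortest loci detected in the ovary had 78 bp. One at positions 219 to 296 of Contig194710 had 2 fragments (FPKM 3871), and one at positions 28251 to 28328 of Ultra696 had 1 fragment (FPKM 1935). Both had a lower limit of 0.

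The M∶F ratio, that is, male over female fibroblast RPKM divided by the median ratio of genes on numbered chromosomes (0.875 over 1655 genes), was above 1 for most short loci. Over the 291 loci above 0 in both libraries the median was 1.53 (1.41 to 1.67), and without the division it was 1.34. The ratio exceeded 1 at 203 loci (69.8%), against 59.2% of the 12224 longer loci. On contigs, 73.3% of 187 short loci and 66.4% of 6117 longer loci exceeded 1. The ratio was 2 or more at 100 of the 291 loci (34.4%, background 11.1% of all genes above 0 in both). It was 0.5 or less at 23 loci (7.90%, background 7.23%). The 12224 longer loci had a median of 1.11 (1.10 to 1.12), with 10.5% at 2 or more and 6.74% at 0.5 or less. Taken over all levels of RPKM, short loci were thus shifted toward the male library in the upper tail but not in the lower. Since the groups hold 1 library each, the shift describes these 2 libraries.

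**Figure D3:**
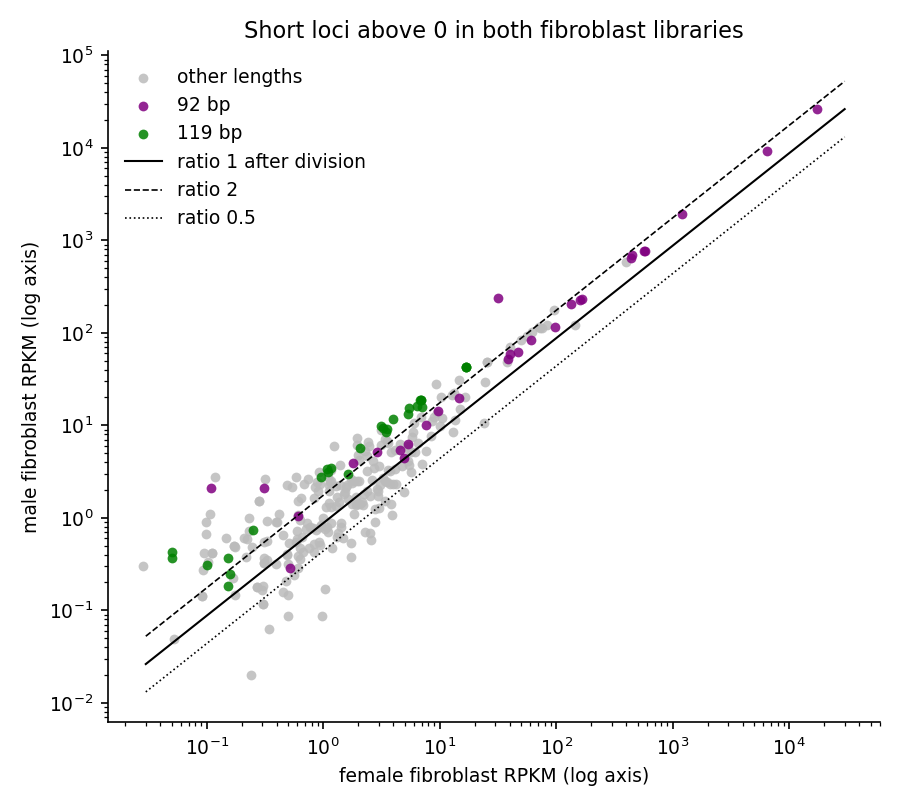
Male against female fibroblast RPKM (log axes) of the 291 short loci above 0 in both libraries. The solid line marks a ratio of 1 after division by the median of genes on numbered chromosomes, dashed and dotted lines mark 2 and 0.5. Loci of 119 bp (green) lie on or above the dashed line with 2 exceptions, and loci of 92 bp (purple) reach the highest values.

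A single bin carried the largest part of the high ratios. At 111 to 120 bp the median was 2.91 (2.38 to 3.18) over 41 loci, 33 of which (80.5%) had a ratio of 2 or more. Within it, the 28 loci of 119 bp had a median of 3.13 (2.91 to 3.34), and all 28 were above 1 and 26 were at 2 or more. Their median RPKM was 8.82 in male and 3.21 in female fibroblasts. The groups of 119-bp loci with identical ovary values had like medians, at 2.91 for the 9 loci of 89 fragments, 3.16 for the 8 loci of 58 fragments and 3.34 for 7 loci of 11 fragments. As these loci have one length and in part one value, they may share reads and do not count as 28 separate observations.

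The 28 loci of 92 bp had a lower median of 1.61 (1.52 to 1.74). Their ratios ran from 0.628 to 22.1, with 27 above 1 and 5 at 2 or more. Without the loci of 92 and 119 bp the median of the other 235 short loci was 1.37 (1.14 to 1.51), with 29.4% at 2 or more. The remaining bins ranged from 0.855 at 121 to 130 bp (0.635 to 2.26, 22 loci) to 1.78 at 141 to 150 bp (0.786 to 3.06, 18 loci). For the bins of 71 to 80 bp and 131 to 140 bp, with 41 and 47 loci, the medians were 1.05 and 1.14 and the intervals included 1.

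**Figure D4:**
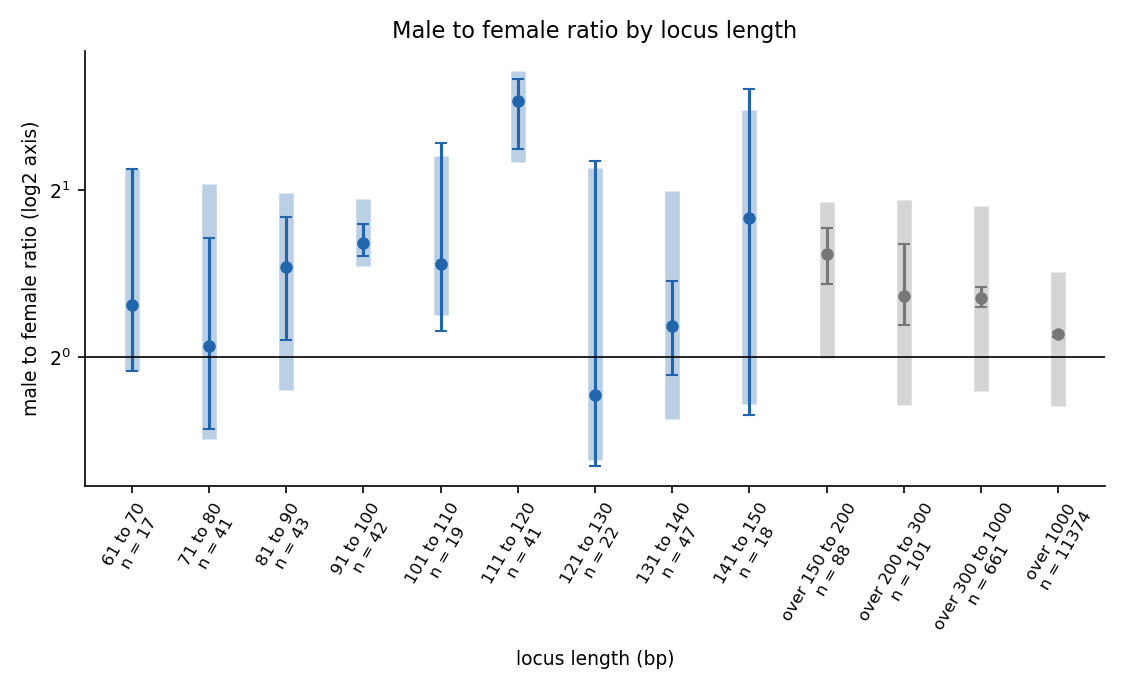
M∶F ratio (log2 axis) by locus length, for bins of short loci (blue) and longer loci (grey). Points are medians, capped bars their 95% order-statistic intervals over loci and wide bars the quartiles. The bin of 111 to 120 bp is highest, with a median of 2.91.

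Ratios also moved with length beyond 150 bp and with the type of scaffold. The median was 1.53 (1.36 to 1.71) at over 150 to 200 bp, 1.29 at over 200 to 300 bp, 1.28 at over 300 to 1000 bp and 1.10 at over 1000 bp. Among short loci it was 1.58 on contigs (187 loci), 1.43 on ultracontigs (90 loci) and 1.10 on chromosomes (0.462 to 2.80, 14 loci). Loci of over 150 bp had 1.22, 1.03 and 0.9999 on these scaffolds. The division thus used genes of a scaffold type that held only 14 of the short loci compared. The part of scaffold type in the shift was not tested.

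The upper tail of the short loci was set beside that of longer loci of like level. At a geometric mean RPKM of under 1, 33.7% of 104 short loci (25.3% to 43.2%) had a ratio of 2 or more, against 26.1% of 2103 longer loci. From 1 to 10 RPKM it was 36.8% of 133 (29.1% to 45.3%) against 12.1% of 3594, and at 10 RPKM or more 29.6% of 54 (19.1% to 42.8%) against 4.57% of 6527. Without the loci of 92 and 119 bp, which may share reads, the short loci had 30.1% of 93, 29.8% of 114 and 25% of 28 in these classes. The intervals count each locus once and test no difference. At 10 RPKM or more the median of the short loci was 1.72 (1.63 to 1.89) and that of the longer loci was 1.13 (1.12 to 1.14). A ratio of 0.5 or less was less frequent among short loci in each class, unlike over all levels. Under 1 RPKM it was held by 14.4% of the short and 19.7% of the longer loci. From 1 to 10 RPKM these shares were 6.02% and 8.32%, and at 10 RPKM or more 0% and 1.70%.

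Among the 62 short loci that reached an RPKM of 10 in male or female fibroblasts the median was 1.74, and 58 were above 1. At a geometric mean RPKM of 10 or more, 92.6% of 54 short loci were above 1, against 64.2% of 6527 longer loci. Without the loci of 92 and 119 bp, which may share reads, the share of the short loci was 85.7% of 28. Among the 62 loci the highest ratio, 8.51, was that of ENSOANG00000016233 at positions 444 to 535 of Contig202725. Its RPKM was 238 in male and 32.0 in female fibroblasts. It is one of the 14 loci of 92 bp with identical ovary values, and the other 13 had ratios between 1.51 and 1.86. ENSOANG00000017683, the 145-bp locus on Contig288621 with the most fragments among longer ones, followed at 3.45. The lowest ratio, 0.509, belonged to ENSOANG00000016447, a 93-bp locus on Ultra222 (positions 5162753 to 5162845) with 10.7 RPKM in male and 24.1 in female fibroblasts, which was at 0 in the ovary. The next lowest, ENSOANG00000009798 at positions 2529 to 2672 of Contig16003, had 8.50 and 13.1 RPKM (ratio 0.742) and 23 ovary fragments.

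A total of 368 short loci (10.8%) lay whole inside a longer listed locus, which is here called a possible host because the table lists no strand and no exons. They fell into 246 hosts, 67 of which held more than 1 and at most 8. The hosts were 570 to 688276 bp long, with a median of 20934 bp. By comparison, 115 of 2649 loci of over 150 to 1000 bp (4.34%) lay inside a locus of over 1000 bp. Nesting followed the scaffolds, with 38.0% of the short loci on ultracontigs, 31.9% on chromosomes and 5.08% on contigs, most of which list no other locus. Of the loci of 136 to 141 bp only 24 (1.73%) were nested, against 17.1% at other lengths.

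Nested loci were detected more often than the rest, but not on every scaffold type. In the ovary 44 of 368 nested loci (12.0%) and 159 of 3037 others (5.24%) were above 0. In male fibroblasts it was 115 of 296 (38.9%, 33.5% to 44.5%) against 219 of 1926 (11.4%, 10.03% to 12.9%). The female library had 128 of 296 (43.2%, 37.7% to 48.9%) against 239 of 1926 (12.4%, 11.01% to 13.96%). On contigs the gap was present in all libraries, at 16.3% against 4.44% in ovary, 53.8% against 9.74% in male and 51.3% against 10.5% in female fibroblasts. Ultracontigs gave the opposite order in ovary, 8.02% inside (4.75% to 13.2%) against 12.5% outside (9.04% to 17.0%), with overlapping intervals. There the fibroblast shares were 34.8% against 25.5% in male and 42.4% against 28.9% in female cells. On chromosomes the shares inside and outside were 12.3% of 65 (6.37% to 22.5%) and 6.47% of 139 (3.44% to 11.8%) in ovary, 12.8% and 9.09% in male and 25.5% and 10% in female fibroblasts. With contigs left out, an alternative chosen after seeing the data, the difference between nested and other loci fell from 6.72 percentage points to -1.17 in ovary, from 27.5 to 9.31 in male and from 30.8 to 15.7 in female fibroblasts.

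**Figure D5:**
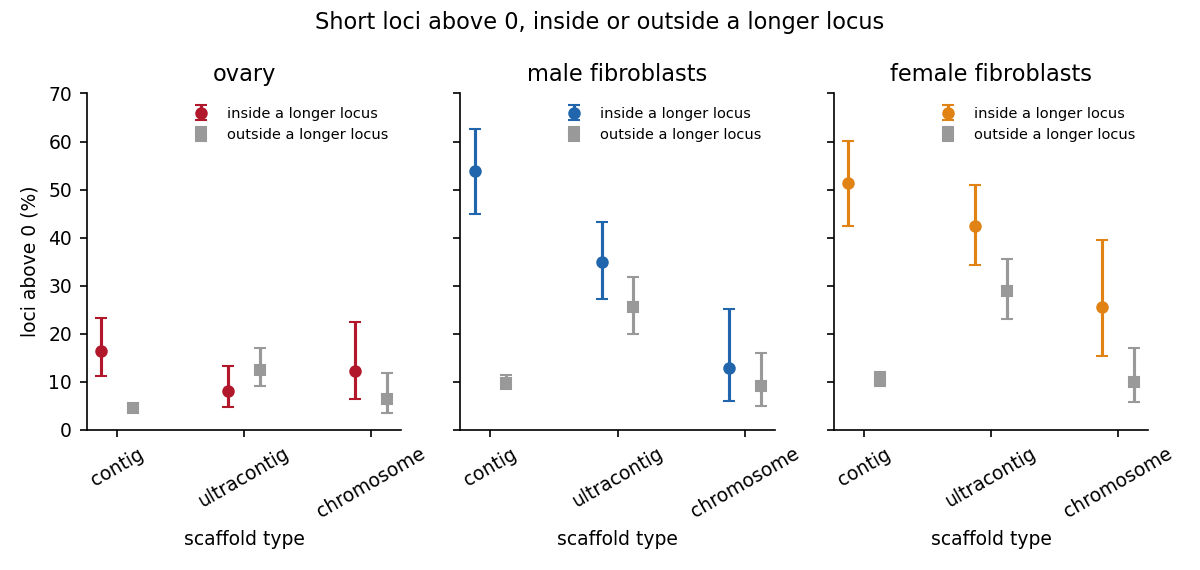
Percent of short loci with a value above 0 inside (circles) and outside (squares) a longer listed locus, by scaffold type, in ovary, male and female fibroblasts, with 95% Wilson intervals. The gap is widest on contigs, and on ultracontigs in ovary the order is turned, at 8.02% inside and 12.5% outside.

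The gap also depended on length. At 131 to 140 bp, 19 of 59 nested loci (32.2%) and 36 of 1455 others (2.47%) were detected in the ovary. In male fibroblasts this bin had 56.3% of 48 against 3.36% of 892, and in female fibroblasts 60.4% against 4.15%. At 111 to 120 bp, where the loci of 119 bp lie, nested loci were detected less often, in 8.89% of 45 against 20.3% of 202 in the ovary and in 11.9% of 42 against 24.1% of 187 in male fibroblasts. Over all scaffolds, the median RPKM of detected nested loci was 1.30 (0.885 to 1.97) in male fibroblasts, against 1.94 (1.44 to 2.46) for the others. In the female library it was 0.948 (0.646 to 1.18) against 1.17 (0.838 to 1.64), and both pairs of intervals overlap. Nested medians were lower on contigs and chromosomes in both fibroblast libraries. On ultracontigs they were higher, at 1.58 against 1.49 in male and 0.976 against 0.713 in female fibroblasts. The M∶F ratio of nested loci had a median of 1.25 (1.09 to 1.51) over 104 loci, compared with 1.67 (1.52 to 1.86) over 187 loci outside. Of the 110 listed loci of 92 and 119 bp, whose median ratios were 1.61 and 3.13, only 15 were nested. The part of these lengths in the difference was not tested.

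Most nested loci had a host with a value above 0, however low. In the ovary this was so for 365 of 368 (99.2%), and in the fibroblasts for 283 (male, 95.6%) and 282 (female, 95.3%) of 296. Over all loci of over 1000 bp, 87.2% were above 0 in the ovary, 75.3% in male and 76.2% in female fibroblasts. These loci were not matched to the hosts in length or scaffold type. On ultracontigs and chromosomes their shares were 92.4% and 94.1% in the ovary. The fibroblast shares there were 81.4% and 80.6% in male and 82.5% and 81.9% in female cells. Among hosts above 0, those of detected loci had higher levels than those of loci at 0. Their median RPKM was 178 (99.7 to 369) against 29.1 (17.7 to 43.3) in male and 165 (90.8 to 381) against 31.6 (19.0 to 40.0) in female fibroblasts. The host medians in the ovary were 78.9 (22.9 to 234) and 37.4 (24.7 to 47.0), whose intervals overlap. Here and below, each of the 67 hosts (of 246) with more than 1 nested locus was counted once per nested locus. The same host can stand on both sides, and the intervals do not describe separate hosts. When nested loci were ordered by the level of the host and split into 4 classes of like size, 66.2% of the top class and 14.1% of the bottom class were detected in male fibroblasts, and 77.5% and 25.4% in female fibroblasts. In the ovary the shares of the classes, from the lowest, were 4.35%, 14.3%, 8.70% and 21.1%.

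Among nested loci detected in the fibroblasts the level showed no clear relation to that of the host. Spearman's rho between both was -0.139 over 114 loci in male and -0.140 over 127 in female fibroblasts. In ovary it was 0.0125 over 44 loci. As ovary FPKM of short loci of different lengths is not on 1 scale, this value cannot show whether the levels are related. In the fibroblasts the nested locus was far below the host, with a median ratio of RPKM of 0.00621 (0.00234 to 0.0143) in male and 0.00537 (0.00232 to 0.0163) in female fibroblasts, and only 5 and 8 loci exceeded their host. In the ovary the median ratio was 0.318 (0.158 to 1.07) and 16 of 44 loci (36.4%) exceeded their host, on the FPKM scale that raises short loci.

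The highest ratio to the host in the ovary, 359, was that of a 101-bp locus on chromosome 7 (positions 9230930 to 9231030). It had 5 fragments (FPKM 221, interval 23.3 to 419) inside a locus of 222066 bp with an FPKM of 0.616, which was at 0 in both fibroblast libraries. The short locus itself had 0.627 RPKM in male and 0.657 in female fibroblasts. On chromosome 4, a 110-bp locus (positions 46540360 to 46540469) had 3.9 fragments (FPKM 91.6) at 57.5-fold its host of 85712 bp. The third, at 50.7-fold, was a 91-bp locus on Ultra516 (positions 1569552 to 1569642) with 5 fragments. Its host, 6521 bp long at positions 1565365 to 1571885, held 4 short loci. The neighbours of 92 bp at positions 1568422 to 1568513 and 1569155 to 1569246 had 2 and 3 fragments. The host had an FPKM of 11.5 in the ovary and an RPKM of 78.8 in male and 55.2 in female fibroblasts, while these 3 short loci had 3.31 to 5.38 and 1.18 to 4.59 RPKM. The other locus, of 70 bp, at positions 1567516 to 1567585 was above 0 only in female fibroblasts, at 1.50 RPKM.

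The lowest ratio to the host was 0.00503, at a 135-bp locus on Contig30838 (positions 1192 to 1326). It had 2 fragments in the ovary (FPKM 14.4) and 0.757 and 1.04 RPKM in male and female fibroblasts. Its host of 6251 bp was among the most abundant loci, with an FPKM of 2865 in the ovary and 12649 and 11150 RPKM in the fibroblasts. A 129-bp locus on chromosome 1 (positions 22307821 to 22307949) had 1 fragment, at 0.0187 of its host. A 139-bp locus on Ultra666 (positions 6521 to 6659) had 2 fragments, at 0.0264 of its host. In each of these 3 the lower limit of the short locus was 0.

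Short loci near one another were detected more often than isolated ones. A total of 531 loci (15.6%) had another short locus within 10 kb, and 11.9% of these were above 0 in the ovary, against 4.87% of the other 2874. The shares were 39.8% against 8.92% in male and 43.4% against 9.88% in female fibroblasts. As most short loci on contigs were the only locus listed there, scaffold type moves with nesting and neighbours alike, and its part in these counts was not tested.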

How the data were processed

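The gene tables of platypus ovary, male fibroblasts and female fibroblasts (1 library each, 76 or 80 cycles) were analysed. For ovary, the values deposited by the authors are FPKM with interval limits and status per locus, in the layout of Cufflinks. For the fibroblasts the authors deposited RPKM, reads per kb of exon model scaled to the number of mapped reads, with other values coded -1. The submitters' processing notes name Bowtie, TopHat 1.0.13 and Cufflinks 1.0.3. The annotation was refined from Ensembl release 57. The ovary table had 22373 rows, of which 4 repeated an identifier. Starts were counted from 0 in the file (the first mitochondrial locus starts at 0) and are given from 1.

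Fragments were computed as the square of 2 times FPKM over the distance from FPKM to its limit. Total read counts per library are not given in the sources used here. The depth is known only as the 11139150 fragments read from the ovary limits, a sum that includes unchecked counts of longer loci. Shares have 95% Wilson intervals and medians exact order-statistic intervals over loci, which describe counting error or the spread of loci and not that between animals. A locus at 0 in one fibroblast library has no ratio. There is no test, as each group holds 1 library. Loci were joined by identifier, genes coded -1 were dropped, and a host had to span a short locus whole, the shortest being used.

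Identifiers were printed for the 2 highest and 2 lowest M∶F ratios among loci of at least 10 RPKM in either library, since reads could not be recovered. By position, the 5 highest loci per library (ties included) and the 3 highest and 3 lowest ovary ratios to a host were given, beside loci named as chosen after seeing values. The 69-bp and 78-bp loci and the neighbours on Ultra516 were also chosen after seeing values. The members and lists were chosen with earlier results of these data known. Alternatives were other length limits, detection limits, scalings and definitions of a host. The steps were tested on simulated data. The simulated limits were built with the rule by which fragments were read. This tests the computation only, and not whether the limits of the authors follow that rule. Computations ran under Python 3.11.15 (pandas 2.3.3, numpy 2.4.6, matplotlib 3.10.9, scipy 1.17.1).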

Additional observations from a re-analysis of the deposited data

How the results depend on the processing

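No paired analysis was possible because there was no second library of any group. Of 81 values under alternatives, 39 stayed within the 95% interval of the reported value, 41 moved out of it and 1 changed direction. Some of these outcomes were fixed in advance. All short loci had status OK and no detected ovary value was below 4.73 FPKM. Limits on status or a value of at least 1 thus could not change ovary detection or the ovary median. Medians in log2(value + 1) or in fragments have another unit than the interval, so their move carries no information. Detection in ovary was 2.91% with the lower limit above 0, 8.38% up to 120 bp, 8.80% up to 200 bp and 8.44% without 136 to 141 bp. In male and female fibroblasts it was 8.82% and 8.51% at a value of at least 1, 25.3% and 27.8% up to 120 bp, 17.4% and 19.1% up to 200 bp, 13.4% and 14.7% over 80 bp, and 22.7% and 25.1% without 136 to 141 bp. The ovary median was 534 FPKM up to 120 bp, 50.5 up to 200 bp and 4 in fragments. Fibroblast medians were 4.11 (male) and 3.51 (female) RPKM at a value of at least 1, and 2.22 and 1.35 up to 120 bp. On the log2(value + 1) scale with all loci each median was 0. The M∶F median was 1.34 with no division, 1.37 with division by the median of all loci outside X and MT, 1.16 with a pseudocount of 1, 1.38 with 1 value per length and 1.37 without 92 and 119 bp. The share at 2 or more was 28.9% with no division, 12.9% with the pseudocount and 25.4% with 1 value per length. Nested loci were 9.27% over 80 bp and 36.0% without contigs. Nested minus other loci was 14.8 (male) and 14.4 (female) percentage points at a value of at least 1, 24.7 (female) over 80 bp, and without contigs 9.31 (male), 15.7 (female) and -1.17 (ovary), the only change of direction. Where nested locus and host were both at least 1, the ratio was 0.0278 (male) and 0.0277 (female). The cause of these changes was not tested. The alternatives without certain lengths or contigs, with identical loci or lengths counted once, and with fragments were chosen after seeing the data. One library per group, unknown fibroblast reads and a median of 4 ovary fragments limit the precision.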

Other observations

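Loci of at most 150 bp that the choice left out were on the X chromosomes (87), on Contig819 (2) and on the mitochondrial genome (22). On the X chromosomes 3 were above 0 in the ovary, and of 77 with a fibroblast value 3 were above 0 in male and 7 in female fibroblasts. The mitochondrial loci were all at 0 in the ovary table, whereas 18 were above 0 in male fibroblasts (at most 87.1 RPKM) and 20 in female fibroblasts (at most 162 RPKM). Of the 2 loci on Contig819, 0 were above 0 in the ovary, 2 in male fibroblasts (at most 3.51 RPKM) and 1 in female fibroblasts (0.311 RPKM).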
